A study of Mus musculus with 18 samples.

Results

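The 46 genes described here make and run the protein factory of the endoplasmic reticulum (ER): its folding chaperones, its quality control, its stress sensors and the channel through which secreted proteins enter it. They were taken by symbol from a table of 24394 gene symbols, and all 46 were in it. RNA was measured by 3′ tag sequencing in 18 mouse livers that formed 3 groups of 6. The first group is tumour-bearing livers of the genotype Alb-Cre+/+ STAT3f/f, called Stat3-deleted here. Tumour-bearing wild-type (WT) livers and control WT livers are the other groups. The tumour is PDA.69, a pancreatic ductal adenocarcinoma (PDAC) line derived from KPC mice and labelled Tcelllow, and the labels list it for the control livers too. The Albumin promoter drives Cre in hepatocytes, so other liver cells keep Stat3, and no Stat3-deleted liver without a tumour was analysed here. Sex, age, site of the tumour and time after implantation are not in the labels.

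The ER is where a hepatocyte folds albumin, clotting factors, acute-phase proteins and its other plasma proteins before export. When unfolded proteins accumulate there, the sensors IRE1, PERK and ATF6 start the unfolded protein response: XBP1 and ATF6 raise chaperones and ER-associated degradation, whereas PERK acts through ATF4 and CHOP on amino acid supply and stress genes. The genes fall into 9 roles by what their proteins do. They are the lumenal Hsp70 system with its co-factors (9 genes), lectin chaperones (2), protein disulfide isomerases (4), ER-associated degradation (7), stress sensors and transcription factors (6), ATF4 and CHOP target genes (3), the translocon with the TRAP complex (7), signal peptidase (3) and oligosaccharyltransferase (5).

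The unfolded protein response reaches many of its targets through short elements near the start of the gene. Promoter letters are therefore shown for chosen genes that hold letters of such an element before their start. Those of Trib3 lie after its start, at bases 14 to 22, and are not shown. The ER stress response element ERSE is CCAAT, any 9 bases, then CCACG. ERSE-II is ATTGG, any 1 base, then CCACG, and the ATF4-CHOP composite element is TGATGNAAN, where N is any base. Both strands were searched in windows of 250 bases before to 50 bases after the start, from RefSeq on build GRCm38.p6, and 38 of the 46 genes had such a window. The stretches below run 5′ to 3′ along the gene up to its start, with the fixed letters of a match in capitals. They are Hspa5 at chr2:34771950-34772089 (plus strand), Hsp90b1 at chr10:86705445-86705684 (minus strand), Creld2 at chr15:88819496-88819645 (plus strand), Calr at chr8:84846932-84847111 (minus strand), Herpud1 at chr8:94386289-94386428 (plus strand), Chac1 at chr2:119351032-119351241 (plus strand) and Asns at chr6:7693210-7693269 (minus strand). A match on the opposite strand reads as its reverse complement, such as CGTGG before ATTGG for ERSE.
Hspa5: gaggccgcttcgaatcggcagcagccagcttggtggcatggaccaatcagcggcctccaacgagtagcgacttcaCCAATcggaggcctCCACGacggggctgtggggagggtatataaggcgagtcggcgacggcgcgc
Hsp90b1: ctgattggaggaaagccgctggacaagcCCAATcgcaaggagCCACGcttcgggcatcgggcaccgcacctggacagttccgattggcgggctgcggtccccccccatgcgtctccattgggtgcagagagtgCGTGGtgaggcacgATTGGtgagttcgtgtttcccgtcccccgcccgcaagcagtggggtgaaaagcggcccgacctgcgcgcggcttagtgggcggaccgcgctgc
Creld2: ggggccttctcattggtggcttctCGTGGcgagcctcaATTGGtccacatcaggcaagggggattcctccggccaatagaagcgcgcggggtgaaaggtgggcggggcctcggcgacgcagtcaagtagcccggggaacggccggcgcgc
Calr: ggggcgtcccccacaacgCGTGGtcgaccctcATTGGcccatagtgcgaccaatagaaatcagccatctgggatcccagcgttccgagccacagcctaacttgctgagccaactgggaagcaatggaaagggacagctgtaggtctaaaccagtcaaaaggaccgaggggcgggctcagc
Herpud1: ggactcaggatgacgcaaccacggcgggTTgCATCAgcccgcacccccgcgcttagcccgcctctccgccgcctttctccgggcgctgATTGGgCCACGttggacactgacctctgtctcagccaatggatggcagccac
Chac1: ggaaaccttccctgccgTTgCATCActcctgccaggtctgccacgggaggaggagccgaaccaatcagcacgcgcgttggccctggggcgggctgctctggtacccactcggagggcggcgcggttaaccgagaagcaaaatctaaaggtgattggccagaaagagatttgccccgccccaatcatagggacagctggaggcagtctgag
Asns: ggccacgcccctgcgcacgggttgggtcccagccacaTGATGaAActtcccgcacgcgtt

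ERSE letters were in 9 of the 38 windows (23.7%), against 0.137% of the windows of 27025 genes. The 9 genes are Hspa5, Hsp90b1, Creld2, Calr, Canx, Dnajc3, Pdia6, Derl3 and Syvn1, and Hsp90b1 held them at 2 places in its printed stretch. ERSE-II letters were in Herpud1 and Dnajb11 (5.26% of the 38, against 0.0444% of all). The ATF4-CHOP composite was in Herpud1, Chac1, Asns and Trib3 (10.5%, against 4.5% of all). The unfolded protein response element TGACGTGG was in none of the 38 windows and in 0.714% of all. Among the 38 searched, Herpud1 was the 1 gene with letters of both ERSE-II and the composite. These matches describe sequence and were not measured as binding.

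Each library held 5212265 to 9545442 counted tags. Stat3-deleted libraries held 7222882 to 9545442, tumour-bearing WT libraries 6168658 to 8850200 and control libraries 5212265 to 7159148. Every Stat3-deleted library was thus deeper than every control library, so depth and group cannot be told apart in that comparison. Values are CPM, the tags of a gene scaled to a common library total after TMM normalisation, and a gene counted as called at an adjusted p under 0.05 in edgeR's quasi-likelihood test with Benjamini-Hochberg adjustment over 11218 genes. All 46 genes passed the filter on low counts. The p-values measure the spread between these livers. In bulk liver RNA, fewer cells of a type and less RNA per cell cannot be told apart. All 8 hepatocyte markers were tested and their summed level was 93248 to 109022 CPM in Stat3-deleted livers, 58253 to 125776 CPM in tumour-bearing WT livers and 54350 to 84003 CPM in control livers. Alb, Apoa1 and Ttr made up most of that sum in each group, so it says little about the other markers. In the same order of groups, Serpina1a averaged 4015, 3782 and 3069 CPM and Hnf4a 256, 216 and 181 CPM. Fah averaged 647, 616 and 603 CPM, Cps1 886, 858 and 983 CPM and Ass1 4.24, 2.95 and 5.81 CPM. Saa1, an acute-phase gene that STAT3 activates, averaged 42.9, 18290 and 246 CPM in the same order of groups. The Stat3 tag lies at the 3′ end and does not check the deletion. It averaged 118 ± 12.8 CPM in Stat3-deleted livers, 213 ± 38.3 CPM in tumour-bearing WT livers and 112 ± 19.1 CPM in control livers (SD, n = 6 each). The liver numbers in the labels of all Stat3-deleted livers form a run of their own, so genotype and number run cannot be told apart. The WT livers carry numbers of a lower and a higher run, with 3 livers of each WT group in each run.

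Control livers 5 and 6 stood apart in the chaperone genes, and they were singled out after their values were seen. BiP (Hspa5), the ER's Hsp70, had 5242 and 4935 CPM in them and 1255 to 1589 CPM in control livers 1 to 4. GRP94 (Hsp90b1), the ER's Hsp90, had 2026 and 1481 CPM in them and 609 to 657 CPM in the other 4 controls. Creld2, a lumenal ER protein induced by ER stress, had 93.2 and 142 CPM in them and 7.18 to 15.2 CPM in the others. They were the 2 highest control livers for 28 of the 46 genes (60.9%), among them 8 of 9 genes of the Hsp70 system and 5 of 5 of oligosaccharyltransferase, and the 2 lowest for none. Over all tested genes, they were the 2 highest for 15.3% and the 2 lowest for 14%. Hsph1, a chaperone of the cytosol, had 136 and 141 CPM in them against 30.6 to 42.9 CPM in the others. Of 8 hepatocyte markers, 3 were above control livers 1 to 4 in both and 1, Alb, was below, at 18562 and 22642 CPM against 30249 to 51602 CPM. Below in both were also 4 of 6 stellate cell, 3 of 6 Kupffer cell and 2 of 3 plasma cell markers tested, and none of these 3 lists had a marker above. Both carry numbers of the higher run. Calls of the 46 genes against control livers, and those of other pathway genes, are therefore given with and without them. Among the tumour-bearing WT livers, liver 6 was the lowest of its group for 24 of the 46 genes (24.6% of all tested genes) and liver 3 the highest for 19 (11.2% of all).

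**Figure D1:**
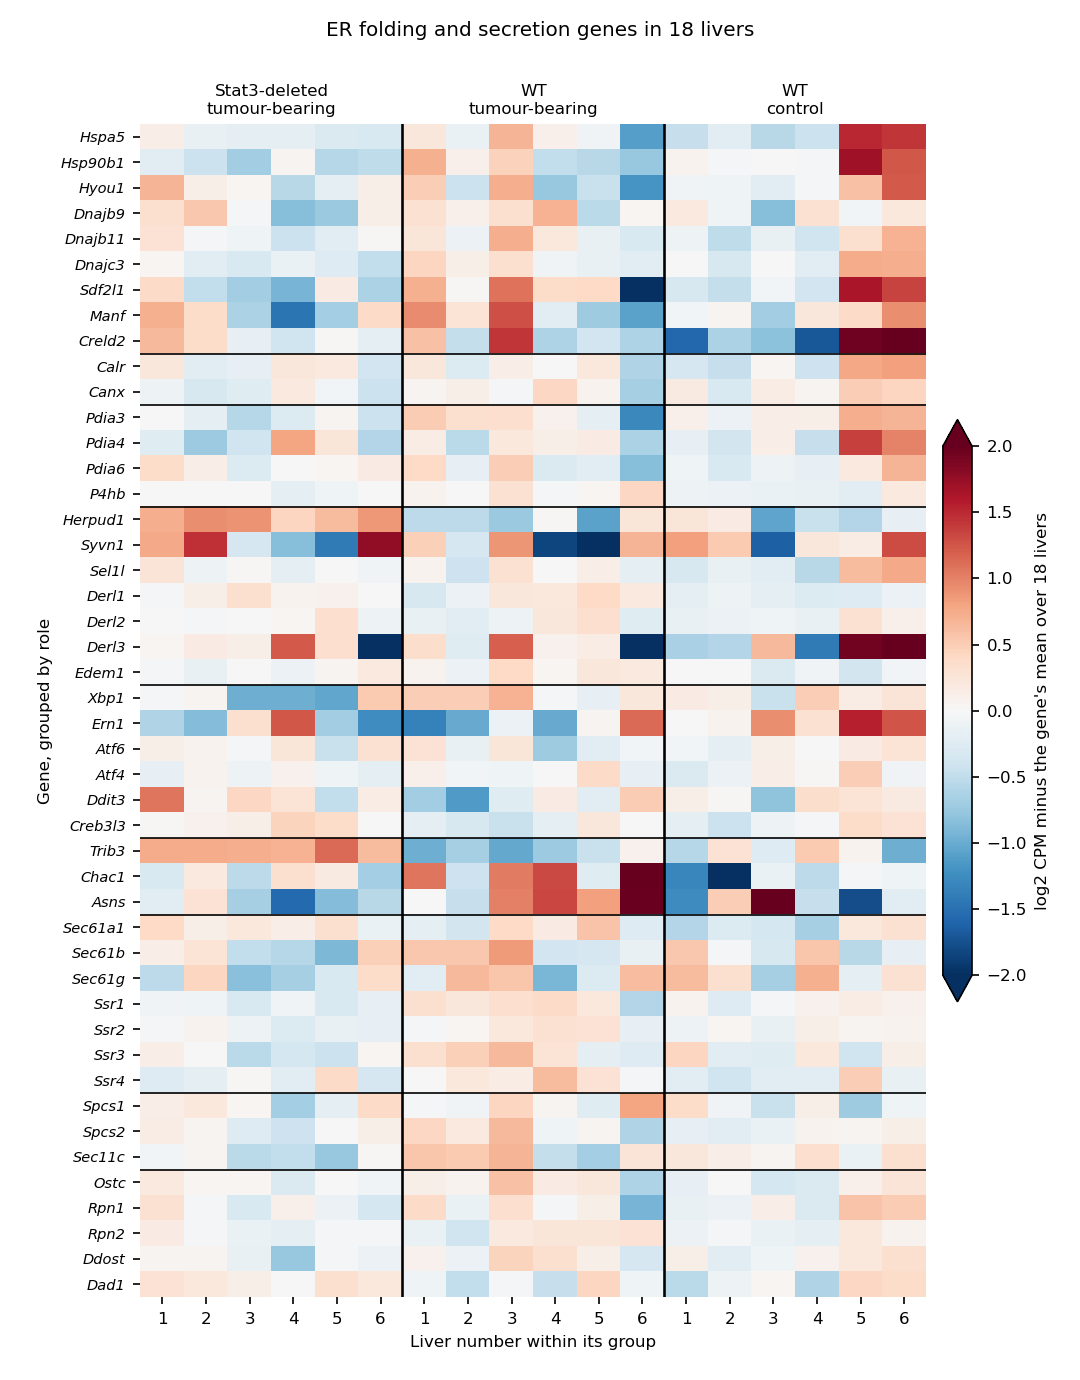
Level of each of the 46 genes (rows, by role) in each of the 18 livers (columns, Stat3-deleted, tumour-bearing WT, control WT), as log2 CPM minus the gene's mean over the livers. The Herpud1 and Trib3 rows are high across the 6 Stat3-deleted livers, and control livers 5 and 6 are the 2 highest controls in 28 rows.

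Few of the 46 genes were called in any comparison. Between Stat3-deleted and tumour-bearing WT livers, Herpud1 and Trib3 rose, which is 2 of 46 (4.35%) against 6.12% of all tested genes (2.89% higher, 3.23% lower), and 9 of the 46 had an unadjusted p under 0.05. Between tumour-bearing WT and control livers, Chac1 rose, which is 1 of 46 (2.17%) against 2.25% of all tested genes (1.76% higher, 0.49% lower). Between Stat3-deleted and control livers, Herpud1 and Trib3 rose and Hsp90b1 fell, which is 3 of 46 (6.52%) against 4.85% of all (2.19% higher, 2.66% lower). Each of these shares lay near its background, so the counts are no result about the genes as a set. The median log2 fold change of the 46 genes was -0.16 for Stat3-deleted minus tumour-bearing WT livers (all tested genes -0.03), with 14 genes above 0 and 32 below. It was -0.04 for tumour-bearing WT minus control livers (all tested genes 0.004) and -0.12 for Stat3-deleted minus control livers (all tested genes -0.009). Without control livers 5 and 6, the last 2 medians were 0.17 and 0.06, and 36 and 30 of the 46 genes lay above 0, where 22 and 17 did with them. These 2 livers were singled out for high values in these genes, so an upward shift without them follows from that choice. The median of all tested genes without them is not given here. No gene of the 46 was called by edgeR in either comparison against controls without these 2 livers, while 6 and 7 had an unadjusted p under 0.05. The counts at an unadjusted p under 0.05 have no share of all tested genes beside them. They too are no result about the genes as a set. The comparisons share groups, so they are not independent of each other.

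**Figure D2:**
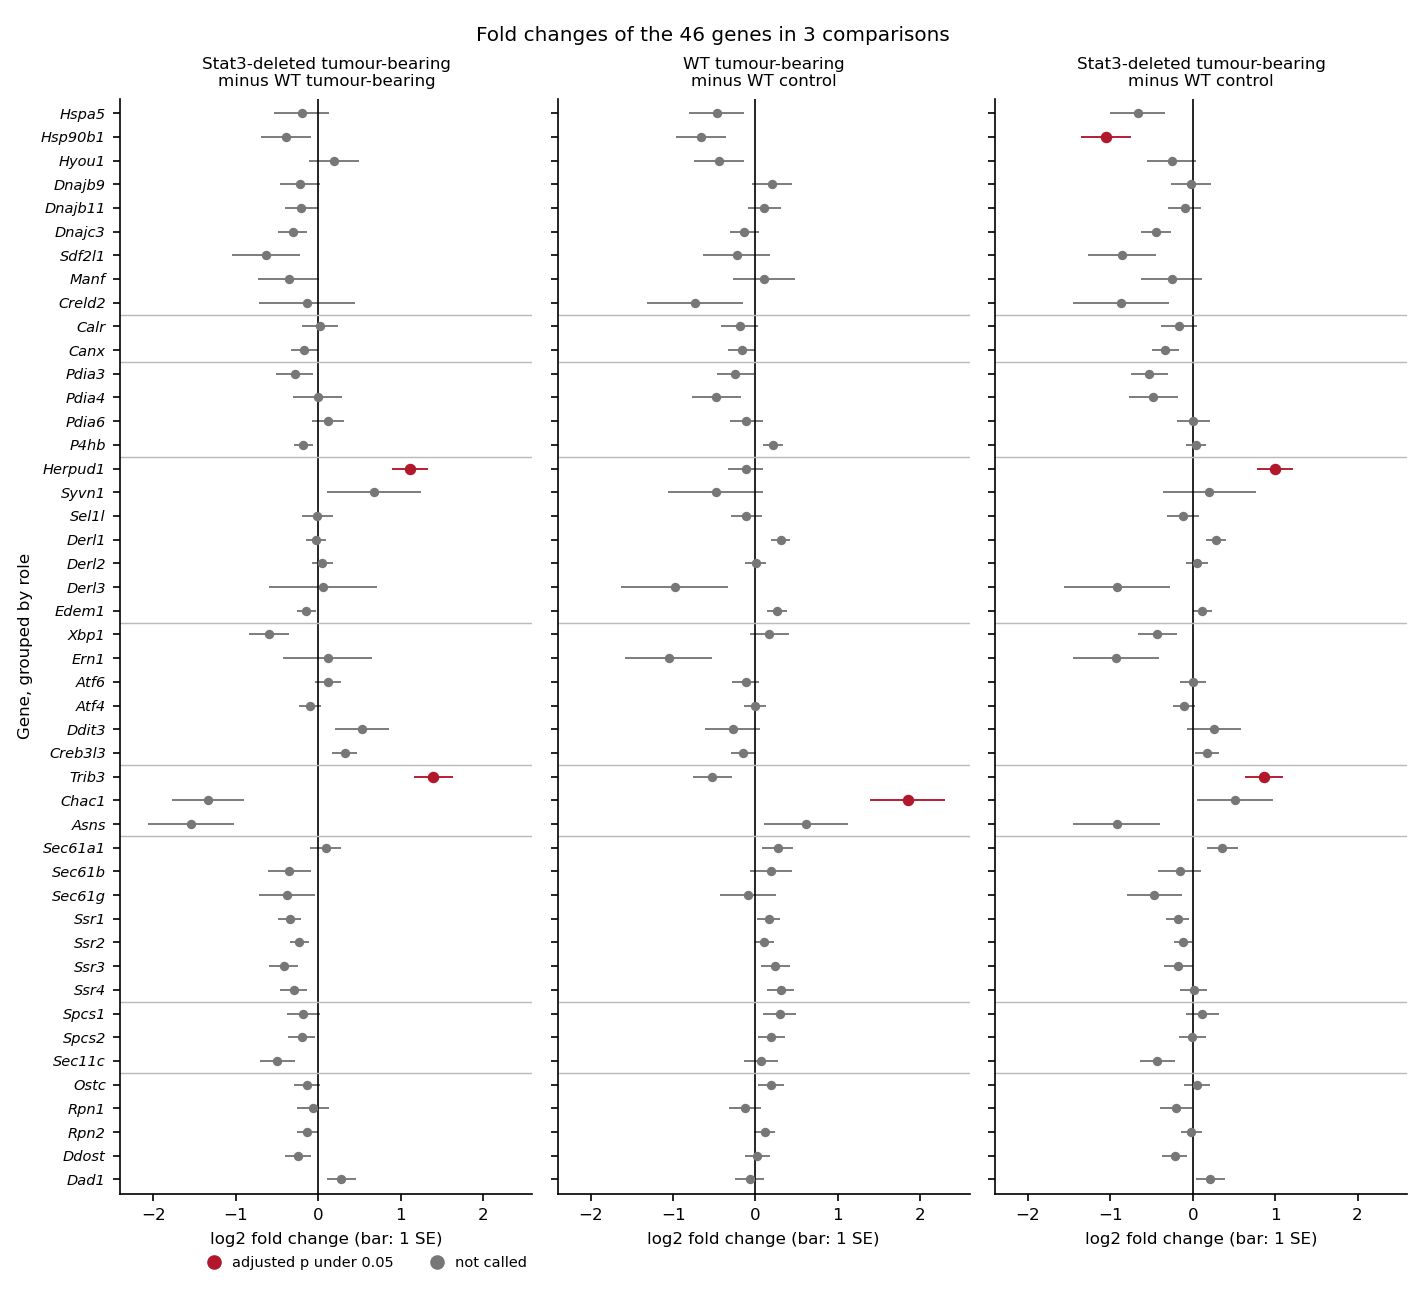
Log2 fold change of each gene with 1 standard error in the 3 comparisons (Stat3-deleted minus tumour-bearing WT, tumour-bearing WT minus control WT, Stat3-deleted minus control WT), with red points for an adjusted p under 0.05. Herpud1 stands at 1.12 and 1.00 and Trib3 at 1.40 and 0.87 in the first and last panels, and Chac1 at 1.85 in the middle panel.

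Herpud1 and Trib3 were the genes that separated Stat3-deleted livers from both WT groups. Herpud1 encodes an ER membrane protein that assembles the HRD1 complex, which passes misfolded proteins to the proteasome. It lay between 950 and 1342 CPM in Stat3-deleted livers (median 1232), between 338 and 835 CPM in tumour-bearing WT livers (median 492) and between 339 and 836 CPM in control livers (median 575). All 6 Stat3-deleted livers were above every WT liver. The mean was 1194 ± 153 CPM in Stat3-deleted livers, 550 ± 188 CPM in tumour-bearing WT livers and 598 ± 192 CPM in control livers (SD, n = 6 each). Stat3-deleted livers were 2.17-fold above tumour-bearing WT livers (log2 fold change 1.12, SE 0.22, edgeR adjusted p = 0.00266) and 2.00-fold above control livers (0.998, SE 0.22, edgeR adjusted p = 0.0124). Leaving out any 1 liver kept both calls. Leaving out control livers 5 and 6 together gave 0.92 against controls, with an adjusted p of 0.0564, which is no longer called, and 1.12 with an adjusted p of 0.00382 against tumour-bearing WT livers. The WT groups differed by a log2 fold change of -0.12 (adjusted p = 0.839). Herpud1 lies on chromosome 8 (94386429 to 94395371, plus strand, GRCm38.p6), and the gene model Gm15890 overlaps it on the other strand. No source used here states whether the counting used strand, and without strand the tags of both genes cannot be told apart.

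Trib3, a pseudokinase that CHOP and ATF4 induce and that binds the kinase AKT, set the Stat3-deleted livers apart in the same way. It lay between 16.2 and 23.1 CPM in Stat3-deleted livers (median 17.4), between 4.94 and 11 CPM in tumour-bearing WT livers (median 6.31) and between 5.15 and 15 CPM in control livers (median 9.73). The lowest Stat3-deleted liver was above the highest WT liver of either group. Means were 18.1 ± 2.5 CPM in Stat3-deleted livers, 6.88 ± 2.26 CPM in tumour-bearing WT livers and 9.87 ± 3.69 CPM in control livers (SD, n = 6 each). Stat3-deleted livers were 2.63-fold above tumour-bearing WT livers (log2 fold change 1.40, SE 0.24, edgeR adjusted p = 0.000577), and the call held under each alternative tried. Against control livers they were 1.83-fold higher (0.87, SE 0.23, edgeR adjusted p = 0.0307). The call against controls was lost without Stat3-deleted liver 2, 3 or 5, without control liver 1, 3 or 6 (adjusted p 0.0595 to 0.0831 over these 6), with library totals as the only scaling (0.0553) and without control livers 5 and 6 (0.103). Trib3 lies on chromosome 2 (152337425 to 152344060, minus strand). Groups did not overlap for 2 of the 46 genes between Stat3-deleted and tumour-bearing WT livers, Herpud1 and Trib3 (3.3% of all tested genes). Against controls there were 3, which are Herpud1, Trib3 and Derl1 (3.82% of all), and between the WT groups there were none (1.52% of all).

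The other ATF4 and CHOP target genes of the set differed from Trib3 in their order. Chac1, a glutathione-degrading enzyme, lay between 1.94 and 4.14 CPM in Stat3-deleted livers (median 3.16), between 2.37 and 19.1 CPM in tumour-bearing WT livers (median 7.05) and between 0.423 and 3.15 CPM in control livers (median 2.55). All 6 tumour-bearing WT livers were above the control mean, yet the groups overlapped, and tumour-bearing WT liver 6 alone held 19.1 CPM. Chac1 rose 3.6-fold in tumour-bearing WT over control livers (log2 fold change 1.85, SE 0.46, edgeR adjusted p = 0.0308). The call was lost without control liver 1, 2 or 4 and without tumour-bearing WT liver 3, 4 or 6, and over all 18 omissions the adjusted p ran over 0.0118 to 0.105. The edgeR adjusted p was 0.0519 with the replicate number as a block and 0.0679 with the number run as a block. It was 0.0872 with the WT groups fitted alone, and 0.0676 by limma voom with a quality weight per liver. Without control livers 5 and 6 the edgeR adjusted p was 0.0526, with a log2 fold change of 2.21. Within the lower and the higher run of liver numbers, 3 livers against 3, the log2 fold changes were 1.89 and 1.83 (adjusted p 0.405 and 0.211). Neutrophil markers moved with the tumour in WT livers: their summed level was 65.1 to 343 CPM in tumour-bearing WT livers and 19.9 to 50.5 CPM in control livers, and 4 of 4 tested rose. The summed level of cholangiocyte markers was 43.5 to 148 CPM in tumour-bearing WT livers and 30.6 to 55.5 CPM in control livers, and 1 of 4 tested rose (Sox9). That of Kupffer cell markers was 423 to 1175 CPM in tumour-bearing WT livers and 225 to 660 CPM in control livers, and 1 of 6 tested rose (Vsig4). The part of these cells in the Chac1 result was not tested. Stat3-deleted minus tumour-bearing WT livers gave -1.34 for Chac1 (SE 0.44, edgeR adjusted p = 0.0756), and it was called lower by DESeq2 (adjusted p = 0.0315) and by edgeR without tumour-bearing WT liver 2 or 5 (0.0372 and 0.031).

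Asns, which makes asparagine, lay between 1.95 and 7.64 CPM in Stat3-deleted livers (median 4), between 4.48 and 25.4 CPM in tumour-bearing WT livers (median 12) and between 1.64 and 27.7 CPM in control livers (median 4.88). All 6 Stat3-deleted livers were under the tumour-bearing WT mean, but the ranges overlapped. The log2 fold change between them was -1.54 (SE 0.53, edgeR adjusted p = 0.0892). Without control liver 3, the one at 27.7 CPM, the adjusted p was 0.026, and with those 2 groups fitted alone it was 0.0227. Chac1 and Asns thus lay lower and Trib3 higher in Stat3-deleted than in tumour-bearing WT livers, of which Trib3 alone was called by edgeR over all livers.

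**Figure D3:**
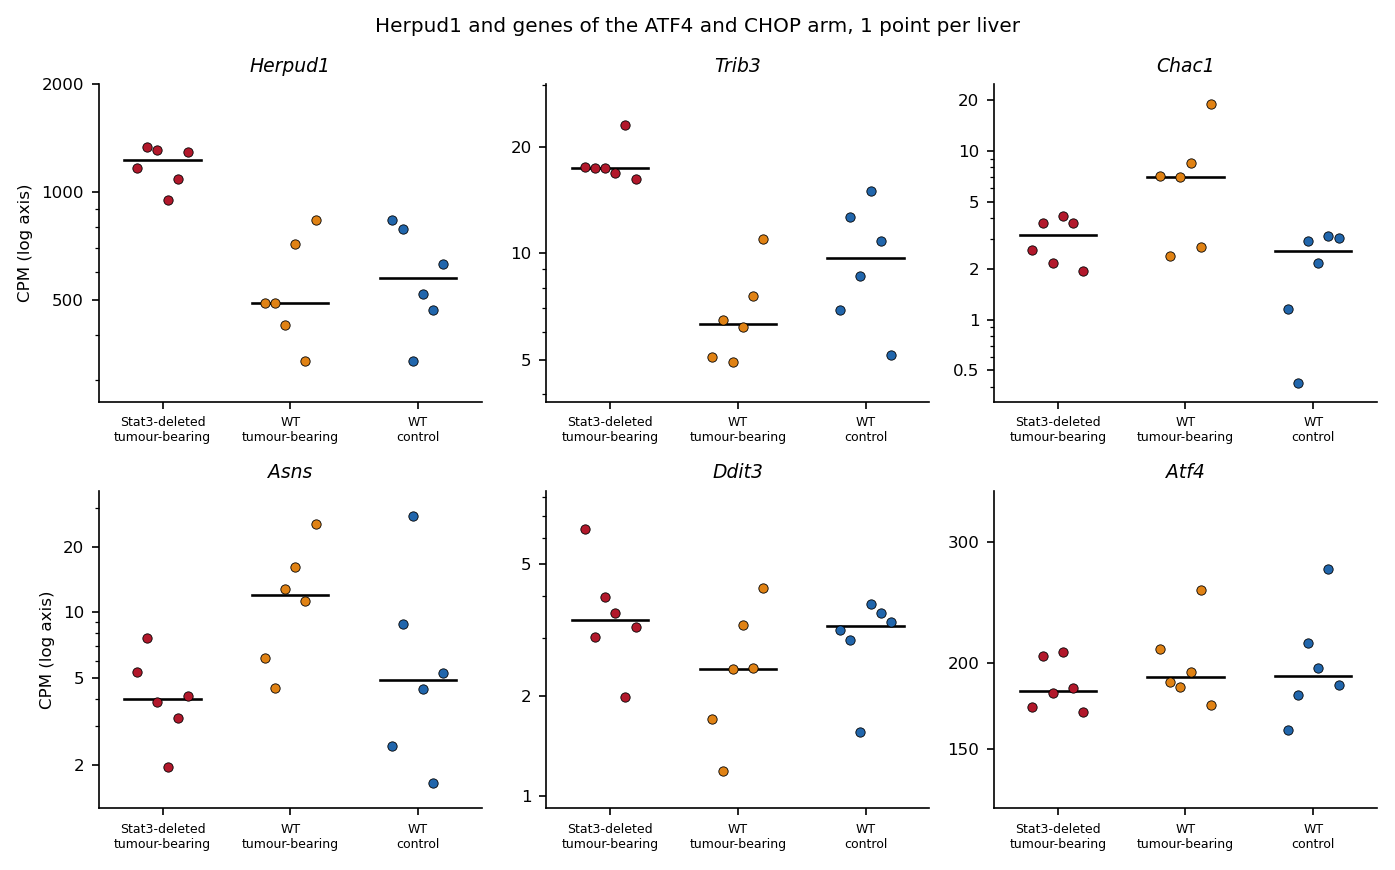
CPM (log axis) of Herpud1, Trib3, Chac1, Asns, Ddit3 and Atf4, with 1 point per liver and a line at the median of each group of 6. The Stat3-deleted livers lie at 950 to 1342 CPM for Herpud1 and 16.2 to 23.1 CPM for Trib3, above all WT livers, whereas the groups overlap for the other 4 genes.

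The transcription factors above these targets were not called by edgeR in any comparison. Atf4, which is controlled mainly at translation, had medians of 183, 191 and 192 CPM in Stat3-deleted, tumour-bearing WT and control livers, with ranges of 170 to 208, 174 to 256 and 160 to 274 CPM. CHOP (Ddit3) had medians of 3.4, 2.42 and 3.25 CPM, with ranges of 1.98 to 6.41, 1.19 to 4.24 and 1.56 to 3.79 CPM, and Stat3-deleted minus tumour-bearing WT livers gave 0.53 (SE 0.33, edgeR adjusted p = 0.389). The groups overlapped for both genes. Creb3l3, a membrane-bound factor of hepatocytes that drives metabolic and acute-phase genes once it is cleaved, had 450 to 615 CPM in Stat3-deleted livers (median 488), 334 to 534 CPM in tumour-bearing WT livers (median 396) and 339 to 584 CPM in control livers (median 432). All 6 Stat3-deleted livers were above the tumour-bearing WT mean, with a log2 fold change of 0.32 (SE 0.15, edgeR adjusted p = 0.238).

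Xbp1, whose spliced form is made by IRE1 and drives chaperones and the secretory apparatus, had 32.5 to 96.2 CPM in Stat3-deleted livers (median 49.5), 59.3 to 108 CPM in tumour-bearing WT livers (median 86.1) and 48.9 to 93.8 CPM in control livers (median 74.5). The tags do not tell its spliced form from the unspliced one. Stat3-deleted livers 3, 4 and 5 had 33.7, 33.9 and 32.5 CPM, below every WT liver, and livers 1, 2 and 6 had 65.1, 69.2 and 96.2 CPM, within the WT range. Stat3-deleted minus tumour-bearing WT livers gave -0.60 (SE 0.24, edgeR adjusted p = 0.16). Without Stat3-deleted liver 6, at 96.2 CPM, it was -0.83 with an adjusted p of 0.0307, and over all 18 omissions the adjusted p ran up to 0.315. IRE1 (Ern1) was among the lowest of the 46 genes in tags, with medians of 0.917, 1.05 and 2.66 CPM in Stat3-deleted, tumour-bearing WT and control livers, and ranges of 0.517 to 4.14, 0.464 to 3.78 and 1.58 to 5.21 CPM. Its log2 fold changes against controls were -0.94 for Stat3-deleted livers and -1.05 for tumour-bearing WT livers (edgeR adjusted p 0.315 and 0.333). Ern1 lies on the chromosome of Stat3, 5.5 Mb away. The sensor Atf6 had medians of 36.3, 31.7 and 35.5 CPM and overlapped across groups.

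In the lumenal Hsp70 system, Hsp90b1 alone was called, and in 1 comparison. BiP (Hspa5), which holds unfolded chains and keeps the stress sensors inactive, had 1494 to 2027 CPM in Stat3-deleted livers (median 1608), 857 to 2942 CPM in tumour-bearing WT livers (median 1865) and 1255 to 5242 CPM in control livers (median 1479). The groups overlapped throughout, and the means were 1650 ± 196, 1893 ± 680 and 2620 ± 1918 CPM (SD, n = 6 each). Hspa5 log2 fold changes were -0.20 for Stat3-deleted minus tumour-bearing WT livers, -0.47 for tumour-bearing WT minus control livers and -0.67 for Stat3-deleted minus control livers (edgeR adjusted p 0.799, 0.52 and 0.263). The sign of the difference between the WT groups turned with 2 libraries. Without control livers 5 and 6 the difference was 0.43 (edgeR adjusted p = 0.463). Its sign also turned by limma voom with a quality weight per liver, at 0.154 (adjusted p = 0.859). The difference also varied between the number runs, 3 livers against 3. It was 0.69 within the lower and -1.34 within the higher run (edgeR adjusted p 0.384 and 0.26).

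GRP94 (Hsp90b1), which folds integrins and Toll-like receptors, had 386 to 652 CPM in Stat3-deleted livers (median 454), 369 to 1032 CPM in tumour-bearing WT livers (median 558) and 609 to 2026 CPM in control livers (median 641). All 6 Stat3-deleted livers were under the control mean of 1002 ± 607 CPM (SD, n = 6), and their own mean was 484 ± 96.8 CPM (SD, n = 6). Hsp90b1 fell in Stat3-deleted against control livers by 1.05 on the log2 scale (SE 0.30, edgeR adjusted p = 0.0474). Without control livers 5 and 6 the log2 fold change was -0.39 with an adjusted p of 0.392, so the call rests on them. It was also lost on omission of any 1 of 9 livers, which were control 5 or 6, tumour-bearing WT 2 or 3 and Stat3-deleted 1, 2, 3, 5 or 6 (adjusted p up to 0.143), with the replicate number as a block (0.0973) and by limma voom (0.0518). A pseudogene model, 1810014B01Rik, overlaps Hsp90b1 on the other strand. The log2 fold change between tumour-bearing WT and control livers was -0.66 (adjusted p = 0.282), and 0.004 without control livers 5 and 6. Within the lower and the higher number run it was 0.43 and -1.74 (adjusted p 0.628 and 0.089).

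Sdf2l1, which partners BiP and its J proteins, had 32.3 to 80.4 CPM in Stat3-deleted livers (median 41.8), 14.2 to 131 CPM in tumour-bearing WT livers (median 80.2) and 44.3 to 191 CPM in control livers (median 54.2). Creld2 had 18 to 37.4 CPM in Stat3-deleted livers (median 22.7), 15.4 to 65.1 CPM in tumour-bearing WT livers (median 17.7) and 7.18 to 142 CPM in control livers (median 14.4). Control livers 1 to 4 all lay under the lowest liver of both tumour-bearing groups for Creld2, and control livers 5 and 6 above the highest. Its log2 fold changes against controls were -0.87 for Stat3-deleted and -0.74 for tumour-bearing WT livers, and without those 2 controls 1.20 and 1.34 (edgeR adjusted p 0.0913 and 0.105). The remaining genes of the system were not called. They are the nucleotide exchange factor Hyou1, the J proteins Dnajb9, Dnajb11 and Dnajc3, and the secreted stress protein Manf. Their medians in Stat3-deleted, tumour-bearing WT and control livers were 22.9, 15.9 and 20.8 CPM for Hyou1. For Dnajb9 they were 17.5, 19.8 and 17.9 CPM, and for Dnajb11 65.9, 71.1 and 62.7 CPM. Dnajc3 had 373, 446 and 442 CPM and Manf 100, 107 and 114 CPM in the same order, and the groups overlapped for all of these genes.

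The median log2 fold change of the 9 genes of the Hsp70 system was -0.22 for Stat3-deleted minus tumour-bearing WT livers, with 8 of 9 below 0. Against controls it was -0.45 for Stat3-deleted livers, with 9 of 9 below 0, and -0.23 for tumour-bearing WT livers, with 6 of 9 below 0. Without control livers 5 and 6 those against controls were 0.03 with 7 of 9 above 0, and 0.39 with 8 of 9 above 0. The median for tumour-bearing WT livers thus turned its sign, whereas that for Stat3-deleted livers went no further than 0.03. Control livers 5 and 6 were singled out for their high chaperone values, so these shifts follow from that choice. They are no separate result. The livers also spread unequally. The median SD of log2 CPM over the 9 genes was 0.39 in Stat3-deleted livers, 0.60 in tumour-bearing WT livers and 0.56 in control livers, where all tested genes had 0.32, 0.40 and 0.36.

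**Figure D4:**
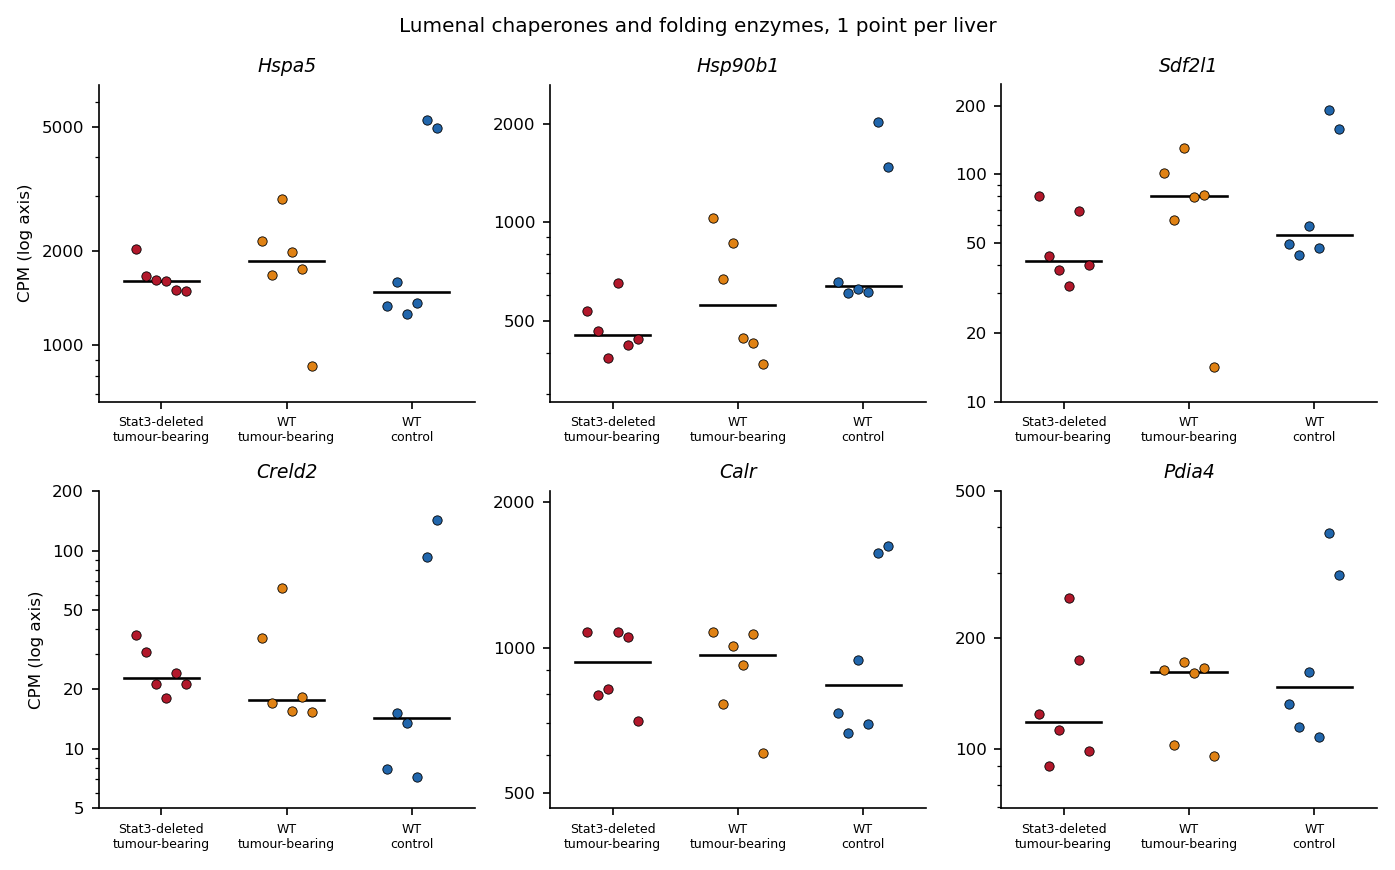
CPM (log axis) of the chaperone genes Hspa5, Hsp90b1, Sdf2l1, Creld2, Calr and Pdia4, with 1 point per liver and a line at the median of each group of 6. Control livers 5 and 6 form the upper pair of the control column in each panel (5242 and 4935 CPM for Hspa5). The Stat3-deleted livers lie close together for Hspa5, at 1494 to 2027 CPM, but spread over 90.1 to 257 CPM for Pdia4.

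None of the lectin chaperones and disulfide isomerases was called. Calreticulin (Calr), which retains glycoproteins until they fold, had 704 to 1079 CPM in Stat3-deleted livers (median 935), 605 to 1075 CPM in tumour-bearing WT livers (median 963) and 665 to 1620 CPM in control livers (median 837). Its membrane-bound relative Canx had medians of 315, 370 and 398 CPM. Pdia4, which forms and rearranges disulfide bonds, had 90.1 to 257 CPM in Stat3-deleted livers (median 119), 96 to 172 CPM in tumour-bearing WT livers (median 163) and 108 to 385 CPM in control livers (median 148). The 3 groups overlapped for each of these genes. Pdia3, the isomerase that works with the lectin chaperones, had medians of 542, 734 and 694 CPM, Pdia6 of 214, 178 and 189 CPM and P4hb of 636, 658 and 583 CPM in Stat3-deleted, tumour-bearing WT and control livers. P4hb lies on the chromosome of Stat3, 19.6 Mb away, and Canx 50.6 Mb away.

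Within ER-associated degradation, Herpud1 was the 1 gene called. The median log2 fold change of the 7 genes for Stat3-deleted minus tumour-bearing WT livers was 0.05, and Herpud1 was the highest of them at 1.12. The ubiquitin ligase HRD1 (Syvn1) had 1.87 to 19.1 CPM in Stat3-deleted livers (median 6.75), 0.64 to 10.2 CPM in tumour-bearing WT livers (median 5.9) and 1.56 to 13.8 CPM in control livers (median 7.13). Its adaptor Sel1l had medians of 198, 208 and 179 CPM and Derl2, of the Derlin channel family, 158, 145 and 148 CPM in the same groups. Edem1, a lectin that selects misfolded glycoproteins, had medians of 75.4, 83.2 and 73 CPM. Neither these 4 genes nor the other Derlins were called.

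Derl1, a Derlin of the ER membrane, had 112 to 144 CPM in Stat3-deleted livers (median 121), 92.5 to 152 CPM in tumour-bearing WT livers (median 132) and 95.1 to 108 CPM in control livers (median 101). All 6 Stat3-deleted livers lay above all 6 control livers, at a log2 fold change of 0.28 (SE 0.12, edgeR adjusted p = 0.182). The tumour-bearing WT livers overlapped both groups, with 0.30 over controls (adjusted p = 0.21). Derl3, the Derlin of plasma cells and other secretory cells, had 0.259 to 8.16 CPM in Stat3-deleted livers (median 3.69), 0.151 to 7.95 CPM in tumour-bearing WT livers (median 3.63) and 1.08 to 20.6 CPM in control livers (median 3.74). The plasma cell markers Jchain and Mzb1 averaged 2.89 and 0.739 CPM in Stat3-deleted livers, 21.1 and 2.66 CPM in tumour-bearing WT livers and 16.5 and 2.6 CPM in control livers. Of 3 tested plasma cell markers, 2 were lower in Stat3-deleted than in tumour-bearing WT livers. The summed level of the list was 120 to 172, 116 to 277 and 97.2 to 246 CPM in the 3 groups. Sdc1 made up most of it, with means of 137, 151 and 128 CPM, so the sum says little about Jchain and Mzb1. Tnfrsf17, not tested, was at 0 in all Stat3-deleted livers and averaged only 0.218 and 0.23 CPM in tumour-bearing WT and control livers. The part of plasma cells in the levels of Derl3 and Xbp1 was not tested.

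The translocon carries nascent chains into the ER lumen, and the TRAP complex assists it. No gene of either was called by edgeR. By limma voom with quality weights, Ssr1 was lower in Stat3-deleted than in tumour-bearing WT livers (log2 fold change -0.38, adjusted p = 0.0396). By the same weighted fit, Sec61a1 was higher in Stat3-deleted than in control livers (0.51, adjusted p = 0.0382). For tumour-bearing WT minus control livers 6 of 7 genes lay above 0 (median log2 fold change 0.19), and for Stat3-deleted minus tumour-bearing WT livers 6 of 7 lay below 0 (median -0.35). With library totals as the only scaling, the median for tumour-bearing WT minus control livers was 0.02 with 4 of 7 above 0, where the median of all tested genes was -0.19, and the median for Stat3-deleted minus tumour-bearing WT livers was -0.30. Sec61a1, the channel itself, had 299 to 434 CPM in Stat3-deleted livers (median 367), 253 to 484 CPM in tumour-bearing WT livers (median 328) and 206 to 406 CPM in control livers (median 264). Without control livers 5 and 6 its log2 fold change for Stat3-deleted minus control livers was 0.62 (edgeR adjusted p = 0.0605), against 0.36 with them (0.275).

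The small subunit Sec61b had 34 to 88.3 CPM in Stat3-deleted livers (median 57.4), 48.4 to 114 CPM in tumour-bearing WT livers (median 74.4) and 43.3 to 93.4 CPM in control livers (median 59). Stat3-deleted livers 3, 4 and 5 were its lowest 3 there, at 45.2, 42.6 and 34 CPM, as they were for Xbp1. In the TRAP complex, Ssr1 had 75.3 to 88.5 CPM in Stat3-deleted livers (median 84.8), 61.8 to 121 CPM in tumour-bearing WT livers (median 112) and 77.8 to 103 CPM in control livers (median 97.5). Tumour-bearing WT liver 6 held the 61.8 CPM, and the other 5 of its group lay at 107 CPM or more, above every Stat3-deleted liver. The Ssr1 log2 fold change for Stat3-deleted minus tumour-bearing WT livers was -0.35 (SE 0.14, edgeR adjusted p = 0.159), which passed without tumour-bearing WT liver 6 (adjusted p = 0.0108, log2 fold change -0.46), and Ssr3 gave -0.42 (SE 0.18, adjusted p = 0.186). Ssr3 had medians of 107, 147 and 116 CPM in Stat3-deleted, tumour-bearing WT and control livers, Ssr2 of 68, 81.2 and 77 CPM and Sec61g of 2.53, 4.06 and 4.34 CPM. Ssr4 had 345 to 573 CPM in Stat3-deleted livers (median 384), 424 to 676 CPM in tumour-bearing WT livers (median 496) and 332 to 616 CPM in control livers (median 379).

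Signal peptidase removes the signal sequence of a chain as it enters. Its catalytic subunit Sec11c had 16.1 to 28.4 CPM in Stat3-deleted livers (median 22.9), 17 to 43.8 CPM in tumour-bearing WT livers (median 36) and 24.9 to 34.5 CPM in control livers (median 31). All 6 Stat3-deleted livers were under the tumour-bearing WT mean, and the log2 fold change was -0.49 (SE 0.21, edgeR adjusted p = 0.187). Without tumour-bearing WT liver 5, at 17 CPM, it was -0.62 with an adjusted p of 0.0485. Spcs1 and Spcs2 had medians of 68.2 and 140 CPM in Stat3-deleted livers, 65.1 and 150 CPM in tumour-bearing WT livers and 60.9 and 134 CPM in control livers. Oligosaccharyltransferase attaches N-glycans to the entering chain. Rpn1 had 117 to 184 CPM in Stat3-deleted livers (median 142), 78.2 to 195 CPM in tumour-bearing WT livers (median 154) and 123 to 223 CPM in control livers (median 150). Ostc, Rpn2, Ddost and Dad1 had medians of 180, 125, 57.7 and 139 CPM in Stat3-deleted livers, 196, 149, 65.3 and 113 CPM in tumour-bearing WT livers, and 168, 122, 65.2 and 118 CPM in control livers. No gene of either complex was called by edgeR over all livers, and the groups overlapped for all of them.

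**Figure D5:**
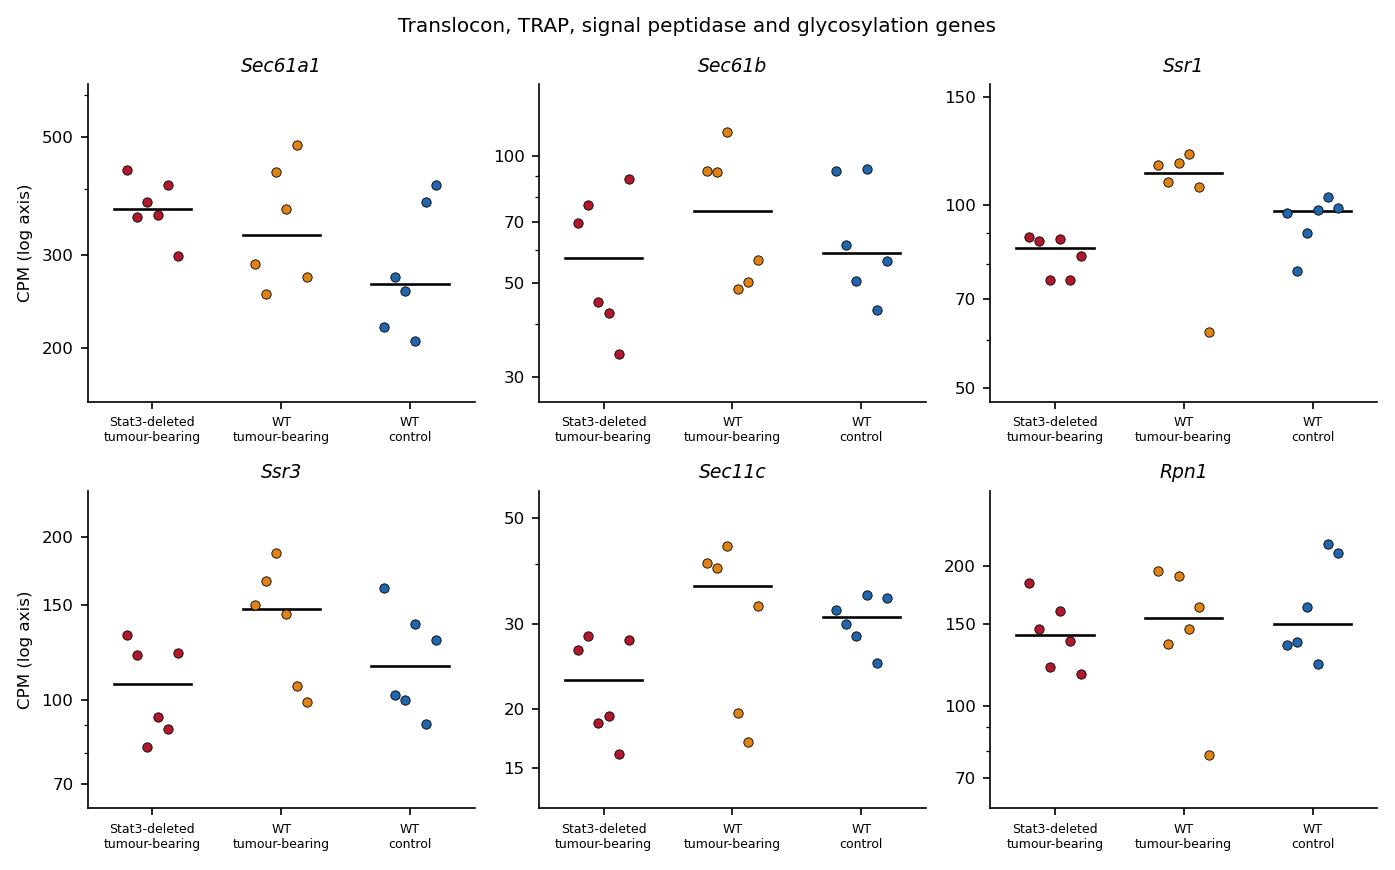
CPM (log axis) of the translocon, TRAP, signal peptidase and oligosaccharyltransferase genes Sec61a1, Sec61b, Ssr1, Ssr3, Sec11c and Rpn1, with 1 point per liver and a line at the median of each group of 6. The groups overlap in each panel, and the Stat3-deleted medians of Ssr1 (84.8 CPM) and Sec11c (22.9 CPM) lie under the tumour-bearing WT medians (112 and 36 CPM).

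Of other genes of the same pathways, 154 were in the table and 140 were tested. For Stat3-deleted minus tumour-bearing WT livers 1 rose and 4 fell, for tumour-bearing WT minus control livers 1 rose and 0 fell, and for Stat3-deleted minus control livers 2 rose and 2 fell (edgeR, with 21, 14 and 19 at an unadjusted p under 0.05). In the first and last of these comparisons 6.12% and 4.85% of all tested genes were called, and 2.25% between the WT groups. The unadjusted counts, here and below, have no such share beside them and are no result about the genes as sets. Among folding factors, Pdia5, a disulfide isomerase that activates ATF6, averaged 34.5 ± 5.59 CPM in Stat3-deleted livers, 66 ± 12.8 CPM in tumour-bearing WT livers and 44.9 ± 8.36 CPM in control livers (SD, n = 6 each). It fell in Stat3-deleted against tumour-bearing WT livers by 0.94 on the log2 scale (SE 0.16, edgeR adjusted p = 0.000512), and no liver of one group reached the other. Its log2 fold change for tumour-bearing WT minus control livers was 0.56 (adjusted p = 0.06). Qsox1, a secreted enzyme that forms disulfide bonds, averaged 718 ± 84.6 CPM in Stat3-deleted livers, 1517 ± 715 CPM in tumour-bearing WT livers and 815 ± 253 CPM in control livers (SD, n = 6 each). Qsox1 rose in tumour-bearing WT over control livers (log2 fold change 0.90, SE 0.24, edgeR adjusted p = 0.0497). With library totals as the only scaling, none of the 26 folding factors tested with it was called in that comparison (edgeR, 4 at an unadjusted p under 0.05). Without control livers 5 and 6, at 1124 and 1111 CPM against 530 to 773 CPM in the other controls, the Qsox1 log2 fold change was 1.17 (adjusted p = 0.023). It fell in Stat3-deleted against tumour-bearing WT livers by 1.08 on that scale (SE 0.24, edgeR adjusted p = 0.00764).

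Among other ATF4 targets, the amino acid transporter subunit Slc3a2 averaged 60.2 ± 8.04 CPM in Stat3-deleted livers, 41.5 ± 9.71 CPM in tumour-bearing WT livers and 35.4 ± 4.44 CPM in control livers (SD, n = 6 each). It rose in Stat3-deleted over tumour-bearing WT livers (log2 fold change 0.54, SE 0.15, edgeR adjusted p = 0.0326) and over control livers (0.77, SE 0.15, edgeR adjusted p = 0.00683), where leaving out control livers 5 and 6 gave 0.74 (adjusted p = 0.0309). The tRNA synthetase gene Aars rose in Stat3-deleted over control livers (0.44, edgeR adjusted p = 0.0476), at 124 ± 9.35 CPM in Stat3-deleted livers, 117 ± 15.8 CPM in tumour-bearing WT livers and 91.4 ± 15.4 CPM in control livers (SD, n = 6 each). Aars gave 0.52 without control livers 5 and 6 (adjusted p = 0.0429). In ER to Golgi transport, Mcfd2, a cargo adaptor for clotting factors V and VIII, averaged 84.8 ± 13.7 CPM in Stat3-deleted livers, 124 ± 24.5 CPM in tumour-bearing WT livers and 107 ± 15.2 CPM in control livers (SD, n = 6 each). It fell in Stat3-deleted against tumour-bearing WT livers by 0.55 on the log2 scale (edgeR adjusted p = 0.0285). Arfgap3, which acts on ARF proteins of the Golgi, averaged 5.08 ± 0.821 CPM in Stat3-deleted livers, 10.4 ± 4.85 CPM in tumour-bearing WT livers and 10 ± 2.47 CPM in control livers (SD, n = 6 each). It fell in Stat3-deleted livers by 1.04 against tumour-bearing WT livers and by 0.98 against control livers (edgeR adjusted p 0.0179 and 0.0326). Golgb1, a Golgi tether, fell in Stat3-deleted against control livers by 0.94 on the log2 scale (SE 0.21, edgeR adjusted p = 0.0125). Without control livers 5 and 6, none of the 34 transport genes tested was called for Stat3-deleted minus control livers (edgeR, 6 at an unadjusted p under 0.05), with -0.80 for Arfgap3 (adjusted p = 0.134) and -0.82 for Golgb1 (adjusted p = 0.0584).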

How the data were processed

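Livers were profiled with a QuantSeq 3′ FWD kit, per the labels' protocols, which counts tags near the 3′ end of transcripts. The authors deposited 1 table of raw counts per gene symbol for the 18 livers, made with STAR on mm10 per the submitters' processing notes. For the STAR version, the counter, the annotation and strand handling, no source used here gives an answer. Of 24421 rows, 27 were named by date numbers in place of symbols and were left out (0.103 to 0.166% of counts), which left 24394. All 18 count columns matched a liver by its label, and 0 were left unmatched.

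Genes were filtered with edgeR's filterByExpr, which left 11218, scaled by TMM (factors 0.75 to 1.114) and fitted over all 18 libraries, 3 groups of 6, with glmQLFit and glmQLFTest and no covariate (15 residual degrees of freedom, common biological coefficient of variation 0.281). P-values were adjusted by Benjamini-Hochberg over all tested genes, with a threshold of 0.05. The SD of log2 CPM used a prior count of 2. Tools were edgeR 4.0.16, limma 3.58.1, DESeq2 1.42.0, R 4.3.3, Python 3.11.15, pandas 2.3.3 and numpy 2.4.6. The fit was tested on simulated data. Alternatives were size factors of DESeq2, library totals, other filters, DESeq2, limma voom, 2 groups alone, blocks for replicate number and number run, and leaving out each liver. Limma voom was run with a quality weight per liver wherever it is named here. The fits without control livers 5 and 6 and within number runs were added after seeing the data.

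The members, lists and alternatives were chosen with earlier results of these data known. Genes named with values are the called members, 16 members listed by role, and in each list of other pathway genes up to 3 called genes per comparison with the smallest adjusted p. Medians and counts of the remaining members account for all 46. Promoter letters and positions are from RefSeq on GRCm38.p6, and overlapping genes from GENCODE vM21. A planned search of protein ends for retention signals was not run, since no protein table was used here.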

Additional observations from a re-analysis of the deposited data

Results flagged for a closer look

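In each group of 6 livers, the highest or lowest liver of each of the 46 genes was set against its nearest neighbour. A gap of more than 0.625 of the group's range on the log2 CPM scale (Dixon's critical value for 6) was found in 12 of 138 groups. Chance flags about 1 in 20. No explanation was weighed for any of them.

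In Stat3-deleted livers, liver 1 stood high for Hspa5 at 2027 CPM (next 1663 CPM), and liver 5 stood high for Derl2 at 201 CPM (next 163 CPM) and for Trib3 at 23.1 CPM (next 17.6 CPM). Liver 6 stood low for Derl3 at 0.259 CPM (2 tags, next 3.41 CPM), and liver 4 for Ddost at 35.8 CPM (next 54.7 CPM).

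In tumour-bearing WT livers, all 3 such values were low and all were in liver 6. They were Sdf2l1 at 14.2 CPM (next 63 CPM), Derl3 at 0.151 CPM (1 tag, next 2.77 CPM) and Ssr1 at 61.8 CPM (next 107 CPM).

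In control livers, liver 3 stood low for Dnajb9 at 9.33 CPM (next 16.1 CPM) and for Ddit3 at 1.56 CPM (next 2.96 CPM). Liver 6 stood high for P4hb at 729 CPM (next 593 CPM), and liver 5 for Ssr4 at 616 CPM (next 392 CPM).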

How the results depend on the processing

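The 2 calls between Stat3-deleted and tumour-bearing WT livers, Herpud1 and Trib3, were made under each alternative tried, and leaving out 1 liver gave 2 to 4 calls (4 without tumour-bearing WT liver 5, 3 by DESeq2, by limma voom and with the 2 groups alone). Against control livers the Stat3-deleted count of 3 was 1 to 3 without 1 liver, and 0 without control livers 5 and 6. The single call between the WT groups was 0 under limma voom, with the 2 groups alone, with the replicate block, with a block for number run, within either run and without control livers 5 and 6, and 0 to 1 without 1 liver. Over all genes, 252 calls between the WT groups became 462 by DESeq2, 128 with 2 groups alone, 126 with the run block, 128 without control livers 5 and 6, 38 and 50 within the lower and higher run, and 132 to 462 without 1 liver. The 686 calls for Stat3-deleted minus tumour-bearing WT livers became 1097 by limma voom and 469 to 906 without 1 liver. The 544 calls for Stat3-deleted minus control livers became 860 by DESeq2, 1318 by limma voom, 894 with 2 groups alone, 254 without control livers 5 and 6 and 258 to 783 without 1 liver. Causes of these moves were not tested.

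Library totals as the only scaling shifted the median log2 fold change of all genes to -0.19 between the WT groups, 0.03 for Stat3-deleted minus tumour-bearing WT livers and -0.13 for Stat3-deleted minus control livers, and the split of higher and lower calls to 115 and 177, 424 and 270, and 139 and 372, where TMM gave 197 and 55, 324 and 362, and 246 and 298. Beside those, the medians of the 46 genes under that scaling were -0.22, -0.09 and -0.23. Deviations of same-numbered livers from their group means correlated at -0.126 to 0.309, which cannot show whether the numbers pair livers. Same-numbered livers of the WT groups lie in the same number run, and most carry label numbers next to each other. The labels do not call them pairs, and the Stat3-deleted livers have no such neighbours. The replicate block spanned all 3 groups, and no paired fit of the WT groups alone was made. The replicate block gave 219, 710 and 570 calls over all genes and 0, 2 and 2 among the 46. Chac1 between the WT groups (edgeR adjusted p 0.0519) and Hsp90b1 (0.0973) were the calls lost. Over the fold changes of 18 named genes under all alternatives, 1391 values kept direction and side of the threshold, 34 lost a call, 6 gained one and 80 that were not called turned their sign. Depth limits Ern1, Derl3, Syvn1, Sec61g, Ddit3 and Chac1 most, which had the fewest tags.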

Other observations

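The level of BiP was set beside those of the other genes across tumour-bearing livers. Over the 12 tumour-bearing livers, each group's mean was removed from the log2 levels. Hspa5 and the 45 other genes then had a median Pearson r of 0.41, and 33 were above 0. The 11217 tested genes other than Hspa5, which include these 45, had a median of 0.01. An r of 0.8 or more was found for 9 of 45 genes (20%) and for 1.11% of the 11217. Ostc, a subunit of oligosaccharyltransferase, had r = 0.92 (permutation p = 0.00328, Spearman's rho 0.85, permutation p = 0.00146, 12 livers). Rpn1, of the same complex, had r = 0.9 (permutation p = 0.00122, rho 0.84, permutation p = 0.00171). With Benjamini-Hochberg adjustment over all 11217 relations none passed, and the lowest adjusted p among the 45 was 0.525 for r and 0.919 for rho.

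Trib3 ran the other way, with r = -0.87 (permutation p = 0.0037) and rho -0.49 (permutation p = 0.138). Tumour-bearing WT livers 6 and 3 lay farthest from the median of Hspa5. Without them r was 0.48 for Ostc, 0.78 for Rpn1 and -0.5 for Trib3. An r of 0.5 or more was then found for 11 of 45 genes (24.4%, against 4.57% of all others). Leaving out the livers farthest from the median narrows the range of Hspa5, which by itself can lower r. The drop therefore cannot show what the high values rest on. Within tumour-bearing WT livers r was 0.97 for Ostc, 0.94 for Rpn1 and -0.96 for Trib3. Within Stat3-deleted livers it was 0.59, 0.79 and -0.21. Livers share depth and scaling in such a relation, and it is a description of these 12 livers.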
